A study of Mus musculus with 6 samples.

Results

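The immediate early genes Fos, Fosb, Jun, Junb, Egr1, Ier2, Atf3, Dusp1, Zfp36 and Nr4a1 were followed in whole mouse ovaries at day 1. They were taken by symbol from the deposited table of 25164 genes, where all 10 were found, and all 10 were among the 12442 genes tested. The mice carried floxed hnRNPL alleles with a Stra8-cre transgene (hnRNPL flox/flox;Stra8-cre, here cKO, 3 libraries) or were wild type (WT, 3 libraries), and both groups were C57BL/6. Stra8-cre drives Cre recombinase in germ cells, so the somatic cells of the same ovaries are not the cells the transgene targets. The series asks how loss of hnRNPL, an RNA-binding splicing regulator, bears on synapsis genes, mTOR and primordial follicles. The labels give all 6 libraries the same lysis in a medium with a collagenase blend and DNase, and speak of a hormone challenge that they do not describe. The labels do not state that each library had its own animal, so the p-values measure only the spread between these libraries, which may be technical.

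Immediate early genes are transcribed within minutes of a stimulus, without new protein synthesis. Growth factors, hormones and stress act through MAP kinases and cAMP on transcription factors that are already present, such as SRF with its ELK partners and CREB. The first products are themselves transcription factors, among them the FOS and JUN proteins that pair as AP-1, or feedback proteins that end the response, such as the phosphatase DUSP1 and the RNA decay factor ZFP36. In the ovary, gonadotropins induce Fos, Egr1 and Nr4a1 in follicular cells. The same genes are known to be induced when tissue is dissociated with enzymes.

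CREB and SRF act through elements that can lie before the transcription start, so the 250 bases upstream of the start are shown. They belong to 3 genes that were higher in every cKO library (Fos, Junb, Nr4a1), to Dusp1, and to the pair with lower means in cKO (Atf3, Zfp36). The sequences are those of RefSeq on GRCm38.p6, written 5′ to 3′ on the gene's strand. Capitals mark the CRE core (TGACG, or CGTCA on the other strand), the TATA box (TATAAA on either strand) and the CArG box that SRF binds.
Fos, chr12:85473640-85473889, plus strand: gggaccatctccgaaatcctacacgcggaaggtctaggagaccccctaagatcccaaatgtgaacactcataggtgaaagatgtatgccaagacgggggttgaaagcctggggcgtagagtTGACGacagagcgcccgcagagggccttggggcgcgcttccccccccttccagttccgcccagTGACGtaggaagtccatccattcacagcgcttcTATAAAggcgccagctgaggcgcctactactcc
Junb, chr8:84978749-84978998, minus strand: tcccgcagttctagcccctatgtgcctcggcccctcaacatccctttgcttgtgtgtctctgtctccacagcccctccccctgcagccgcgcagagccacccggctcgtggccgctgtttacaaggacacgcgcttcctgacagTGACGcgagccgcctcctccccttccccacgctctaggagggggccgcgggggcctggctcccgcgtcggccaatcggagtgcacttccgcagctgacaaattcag
Nr4a1, chr15:101266596-101266845, plus strand: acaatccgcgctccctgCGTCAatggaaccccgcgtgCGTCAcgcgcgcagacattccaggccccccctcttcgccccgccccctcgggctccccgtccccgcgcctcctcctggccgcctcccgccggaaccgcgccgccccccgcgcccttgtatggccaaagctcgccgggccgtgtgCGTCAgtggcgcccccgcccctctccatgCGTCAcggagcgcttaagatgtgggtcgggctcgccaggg
Dusp1, chr17:26508473-26508722, minus strand: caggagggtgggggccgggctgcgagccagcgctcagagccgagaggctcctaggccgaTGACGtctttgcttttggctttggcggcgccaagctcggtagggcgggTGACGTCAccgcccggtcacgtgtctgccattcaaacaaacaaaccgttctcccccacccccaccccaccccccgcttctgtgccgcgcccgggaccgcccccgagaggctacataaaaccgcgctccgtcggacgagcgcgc
Atf3, chr1:191183334-191183583, minus strand: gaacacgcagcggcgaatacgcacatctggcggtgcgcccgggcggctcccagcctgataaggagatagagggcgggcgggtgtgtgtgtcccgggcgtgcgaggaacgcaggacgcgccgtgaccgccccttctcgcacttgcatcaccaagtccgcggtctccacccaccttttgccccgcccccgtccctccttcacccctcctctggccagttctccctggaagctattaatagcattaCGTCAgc
Zfp36, chr7:28379229-28379478, minus strand: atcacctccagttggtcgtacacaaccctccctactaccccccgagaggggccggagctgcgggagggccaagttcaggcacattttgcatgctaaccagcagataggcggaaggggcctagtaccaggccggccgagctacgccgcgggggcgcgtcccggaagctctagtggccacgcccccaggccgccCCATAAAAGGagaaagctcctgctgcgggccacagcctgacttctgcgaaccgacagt

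Promoters of 8 of the 10 genes were matched by symbol, all but Ier2 and Egr1. The CRE core was found in 6 of the 8 (Fos, Fosb, Junb, Atf3, Dusp1 and Nr4a1), and in 17.9% of 27025 promoters of the same length. Nr4a1 held 4 cores and Fos held 2. The full CRE, TGACGTCA, which holds the core on both strands, was found in Dusp1 alone of the 8 and in 1.62% of all promoters. The CArG box was found in Zfp36 alone, 58 to 49 bases before the start, and in 1.40% of all promoters. The TATA box TATAAA was found in Fos alone, 33 to 28 bases before the start, and in 13.0% of all promoters. Neither the AP-1 site (TGANTCA) nor the EGR site (GCGTGGGCG) was found in any of the 8, against 6.87% and 0.540% of all promoters. The GC box (GGGCGG) was found in 7 of the 8 and in 32.9% of all promoters. All motifs were searched on both strands, in the 250 bases before the start only. Elements farther upstream, and any in Ier2 and Egr1, were not searched, so a motif not found here may lie outside the window. A match is a string of letters and not a measured binding site.

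The genes also share a compact structure. In the GENCODE M21 gene models 9 of the 10 had at most 4 exons, as had 20.8% of 11638 protein-coding genes tested. Jun, Junb and Ier2 had 1 exon, and Nr4a1 was the exception with 8. Their transcripts were 1522 to 4484 bases long, and 8 of the 10 were shorter than the median of 3198 bases. The heptamer TATTTAT, the core of the AU-rich element that ZFP36 binds, was present in the 3′ UTR of 6 of the 10, against 30.6% of the protein-coding genes. Dusp1 and Zfp36 held 3 copies each, a number that 4.0% of the genes reached or passed.

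The libraries differed in depth and composition. Depth, estimated from the smallest steps of FPKM (a fragment count scaled to transcript length and library size), came to 7200000, 10800000 and 12200000 fragments in cKO and to 14400000, 13800000 and 11100000 in WT. The library cKO replicate 1 stood apart: its median deviation from the gene mean on the log2(FPKM + 1) scale was 0.32 among short transcripts (the lowest of 3 equal length classes) and 0.10 among long ones (the highest class), against -0.10 to 0.00 in the other 5 libraries. Hnrnpl itself was at 100.5, 81.5 and 85.2 FPKM in cKO and at 104.1, 93.8 and 101.9 FPKM in WT, a log2 fold change (± SE) of -0.17 ± 0.13 at adjusted p = 0.571 (limma). At this level the targeted gene does not separate the groups. Each of the 10 genes rested on an estimated 499 to 15106 fragments per library, and the counting error of a single value was at most 4.48%, that of Atf3.

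The genes were abundant in both groups. By mean WT level Fos ranked 40th of the 12442 genes tested and Egr1 85th, while Atf3, the lowest of the 10, ranked 876th. FPKM is a level per length, so genes may be compared: in WT the order was Fos, Egr1, Junb, Fosb, Jun, Ier2, Nr4a1, Dusp1, Zfp36 and Atf3. Junb, Fosb and Jun were neighbours whose WT values overlapped, at 140.3 to 154.1, 136.1 to 147.8 and 135.8 to 144.9 FPKM. In cKO the order of the means was the same. As deposited these 3 genes were at 170.3 to 199.3 FPKM for Junb, 162.0 to 169.2 FPKM for Fosb and 150.8 to 161.8 FPKM for Jun. These ranges did not overlap but nearly met. After median-of-ratios scaling, described below, they overlapped, at 169.5 to 178.5 FPKM for Junb, 137.8 to 173.7 FPKM for Fosb and 137.6 to 164.6 FPKM for Jun.

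In the comparison of cKO with WT, none of the 10 genes passed the test across all genes, and differences were small. Fos, Fosb, Jun, Junb, Egr1, Ier2 and Nr4a1 were higher in all 3 cKO libraries than in any WT library, by 12.3% to 21.0% of the WT mean. Zfp36 was lower in all 3, by 17.5%. Dusp1 and Atf3 overlapped between groups. The test was limma on log2(FPKM + 1) with p-values adjusted by Benjamini-Hochberg over all genes, where a gene was called below 0.05, and 0 of 10 were called in either direction. Over all genes 0.0482% were called higher in cKO and 0.0723% lower (0.121% in all), and with 1 library left out the number of genes called ran from 2 to 89. At an unadjusted p under 0.05 only Zfp36 counted among the 10, on the lower side, as did 4.26% of all genes on that side, 9.89% on the higher side and 14.2% in all. Groups without overlap were found for 7 genes higher in cKO, against 15.5% of all genes, and for 1 gene lower, against 7.03% (22.6% in either direction). In whole ovaries, fewer cells of a type and less RNA per cell cannot be told apart.

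**Figure D1:**
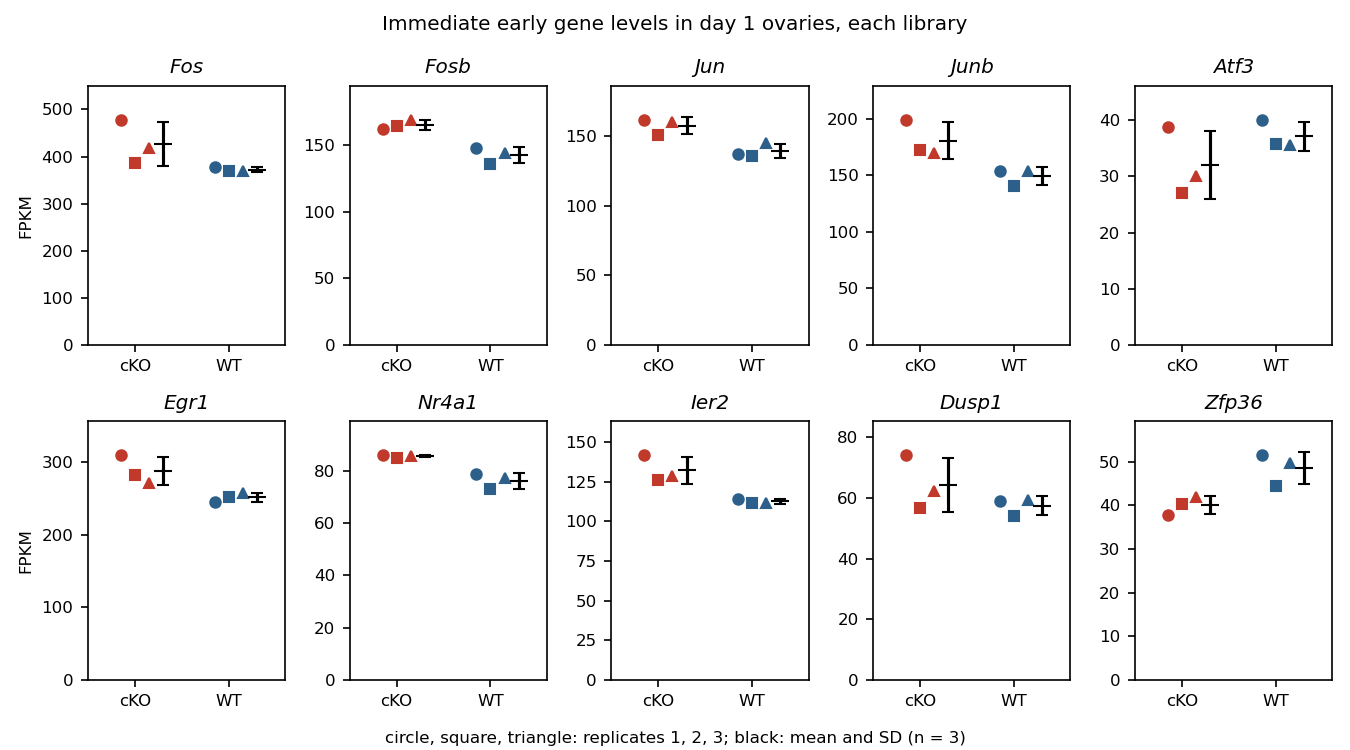
FPKM (vertical axis, from 0) of the 10 genes in each cKO library (left, red) and WT library (right, blue), with the mean and SD of 3 libraries in black. Groups do not overlap for Fos, Fosb, Jun, Junb, Egr1, Ier2, Nr4a1 and Zfp36, and overlap for Atf3 and Dusp1.

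Among the AP-1 genes, Fos encodes the bZIP protein c-FOS, which binds DNA only with a JUN partner. It stood at 478, 386 and 418 FPKM in cKO replicates 1, 2 and 3, against 378, 370 and 368 FPKM in WT replicates 1, 2 and 3. The 3 WT values lay within a narrow band and cKO replicate 1 was the highest of all 6. The log2 fold change was 0.20 (SE 0.18, 95% interval -0.21 to 0.60, limma adjusted p = 0.621), and without cKO replicate 1 it was 0.11. Fosb, a second FOS protein with a shorter spliced form that lacks the activation domain, was at 162.0, 164.6 and 169.2 FPKM in cKO, against 147.8, 136.1 and 144.0 FPKM in WT. Here cKO replicate 1 was the lowest of its group, unlike Fos. Its log2 fold change was 0.21 (SE 0.13, 95% interval -0.09 to 0.51, limma adjusted p = 0.476). The gene-level values do not separate the spliced forms.

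Jun encodes c-JUN, which pairs with itself or with FOS proteins, and was at 161.8, 150.8 and 160.2 FPKM in cKO, against 137.2, 135.8 and 144.9 FPKM in WT. All 3 cKO values were above the WT values, and the log2 fold change was 0.18 (SE 0.13, 95% interval -0.12 to 0.47, limma adjusted p = 0.538). Junb, a JUN protein that activates transcription more weakly, was at 199.3, 172.7 and 170.3 FPKM in cKO, against 153.7, 140.3 and 154.1 FPKM in WT. The log2 fold change was 0.27 (SE 0.14, 95% interval -0.06 to 0.60, limma adjusted p = 0.425). Jun overlaps the antisense gene Junos and the Junb locus overlaps the end of Prdx2 on the other strand, and the sources used here do not say whether counting used strand. Atf3, a bZIP repressor that is also induced by the integrated stress response, was at 38.8, 27.1 and 30.0 FPKM in cKO, against 40.1, 35.9 and 35.5 FPKM in WT. Here cKO replicates 2 and 3 were below every WT library and cKO replicate 1 was not. The log2 fold change was -0.22 (SE 0.15, 95% interval -0.56 to 0.12, limma adjusted p = 0.505). Leaving out cKO replicate 1 gave -0.37, and leaving out cKO replicate 2 gave -0.12.

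Of the other transcription factors, Egr1, a zinc finger protein induced by ERK signalling, was at 310, 282 and 272 FPKM in cKO, against 245, 252 and 257 FPKM in WT. The lowest cKO library was above the highest WT library, and the log2 fold change was 0.19 (SE 0.15, 95% interval -0.16 to 0.54, limma adjusted p = 0.566). Nr4a1, an orphan nuclear receptor also called NUR77, was at 86.0, 85.0 and 85.7 FPKM in cKO, against 78.7, 72.8 and 77.1 FPKM in WT. As deposited its cKO values had a coefficient of variation of 0.594%, below the counting error of up to 2.62% estimated for Nr4a1, but after median-of-ratios scaling it was 10.3%. The log2 fold change was 0.17 (SE 0.11, 95% interval -0.09 to 0.42, limma adjusted p = 0.518). Ier2, a nuclear protein of the early growth response, was at 141.7, 125.9 and 128.4 FPKM in cKO, against 114.3, 111.6 and 111.7 FPKM in WT. The WT values were again close together, and the log2 fold change was 0.23 (SE 0.13, 95% interval -0.06 to 0.52, limma adjusted p = 0.445).

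The feedback genes differed from each other. Dusp1, the phosphatase that switches off p38, JNK and ERK, was at 74.2, 56.6 and 62.4 FPKM in cKO, against 59.1, 54.0 and 59.4 FPKM in WT. Only cKO replicates 1 and 3 were above the WT range, and the log2 fold change was 0.15 (SE 0.13, 95% interval -0.16 to 0.46, limma adjusted p = 0.611). Leaving out cKO replicate 1 gave 0.05, and leaving out cKO replicate 2 gave 0.24. Zfp36 encodes tristetraprolin, which binds AU-rich elements and speeds the decay of cytokine and early gene mRNAs. It was at 37.8, 40.2 and 42.0 FPKM in cKO, against 51.5, 44.4 and 49.6 FPKM in WT. All cKO values were below all WT values, and cKO replicate 1, the highest library for most of the genes, was the lowest for Zfp36. The log2 fold change was -0.27 (SE 0.11, 95% interval -0.53 to -0.01), the only 1 of the 10 whose interval left out 0 before adjustment (limma unadjusted p = 0.0424, adjusted p = 0.337). The gene model of Zfp36 overlaps an antisense gene, Gm44710. A two-sided exact permutation test had p = 0.1, the smallest value that 3 against 3 libraries allow, for the 8 genes without overlap and p = 0.3 for Atf3 and Dusp1.

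The differences depended on how the libraries were scaled. The median log2 fold change was 0.19 over the 10 genes and 0.08 over all genes tested, and 8 of the 10 were positive, against 65.2% of all genes. After median-of-ratios scaling, which divides each library by its median ratio to the geometric mean of every gene, the medians were 0.10 and 0.00. On that scale the groups did not overlap for Fos, Junb and Ier2, higher in cKO, against 12.6% of all genes, and for Zfp36 and Atf3, lower in cKO, against 13.0%. Atf3 had overlapped as deposited. Fosb, Jun, Egr1, Dusp1 and Nr4a1 overlapped. Of the 10 genes 0 were called after scaling, against 0.764% of all genes higher and 0.530% lower, 1.29% in all (95 and 66 genes, against 6 and 9 without scaling). Atf3 had a scaled log2 fold change (± SE) of -0.31 ± 0.09 at adjusted p = 0.115 (limma) and Zfp36 one of -0.36 (SE 0.12, limma adjusted p = 0.179), with unadjusted p of 0.00669 and 0.019. An unadjusted p under 0.05 was reached by 18.9% of all genes on that scale, 9.53% higher and 9.41% lower.

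**Figure D2:**
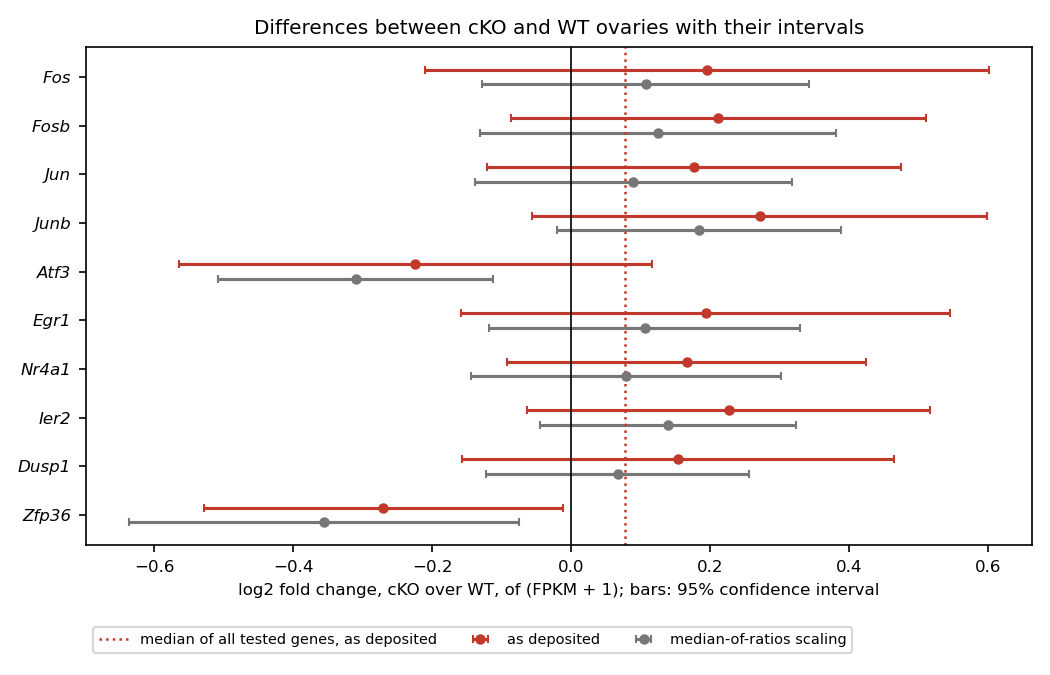
Log2 fold change of cKO over WT on the log2(FPKM + 1) scale (horizontal axis) for each gene, with 95% confidence intervals, as deposited (red) and after median-of-ratios scaling (grey); the dotted line is the median of all genes as deposited, 0.08. As deposited only the interval of Zfp36 leaves out 0, and after scaling those of Zfp36 and Atf3 do, before adjustment.

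Rescaling each library to TPM moved the median of all genes to -0.12 and with it the signs: Fos, Jun, Egr1, Dusp1 and Nr4a1 were then slightly negative, and Fos and Jun were also negative after quantile normalization. Relative to the median of all genes, the 10 genes lay 0.11 higher as deposited, 0.10 higher after median-of-ratios scaling, 0.09 higher with TPM rescaling and 0.01 higher after quantile normalization. Fosb, Junb and Ier2 were positive, and Atf3 and Zfp36 negative, under each of the 17 alternatives tried. Without cKO replicate 1 the median of the 10 was 0.15 and that of all genes 0.00. In that comparison 7 genes were higher without overlap (17.1% of all genes) and 2 were lower (17.8%), Atf3 and Zfp36, against 34.9% of all genes in either direction. None of the 10 was called there either. An unadjusted p under 0.05 (limma) was reached there by 6 of the 10, and the share of all genes at that level was not computed.

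Ratios between the genes within a library do not change when the whole library is multiplied by a single factor. Quantile normalization and a correction for transcript length can change them, and the ratios below are from FPKM as deposited. There cKO replicate 1 was raised more among short than long transcripts, and the part of that in these ratios was not tested. Zfp36 relative to the geometric mean of the other 9 was -1.93, -1.64 and -1.63 (log2) in cKO, against -1.25, -1.39 and -1.28 in WT, a difference of -0.43. Atf3 relative to the other 9 was -1.89, -2.27 and -2.17 in cKO, against -1.65, -1.73 and -1.82 in WT, a difference of -0.38. Both genes were lower in every cKO library than in any WT library by this measure. Junb and Ier2 were higher in every cKO library, with differences of 0.18 and 0.13, and the other 6 genes overlapped. As a ratio to Fos, Zfp36 stood at 0.0791, 0.1042 and 0.1004 (ratio of FPKM) in cKO, against 0.136, 0.120 and 0.135 in WT. The ratio of Dusp1 to Fos was 0.1503 ± 0.00436 in cKO and 0.155 ± 0.00786 in WT (SD, n = 3) and overlapped. The 10 values are not independent, because the low Zfp36 and Atf3 are part of the reference of the other genes and raise their values in cKO. The share of all genes without overlap was not computed for this measure. These ratios were chosen after the values were seen and carry no test.

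**Figure D3:**
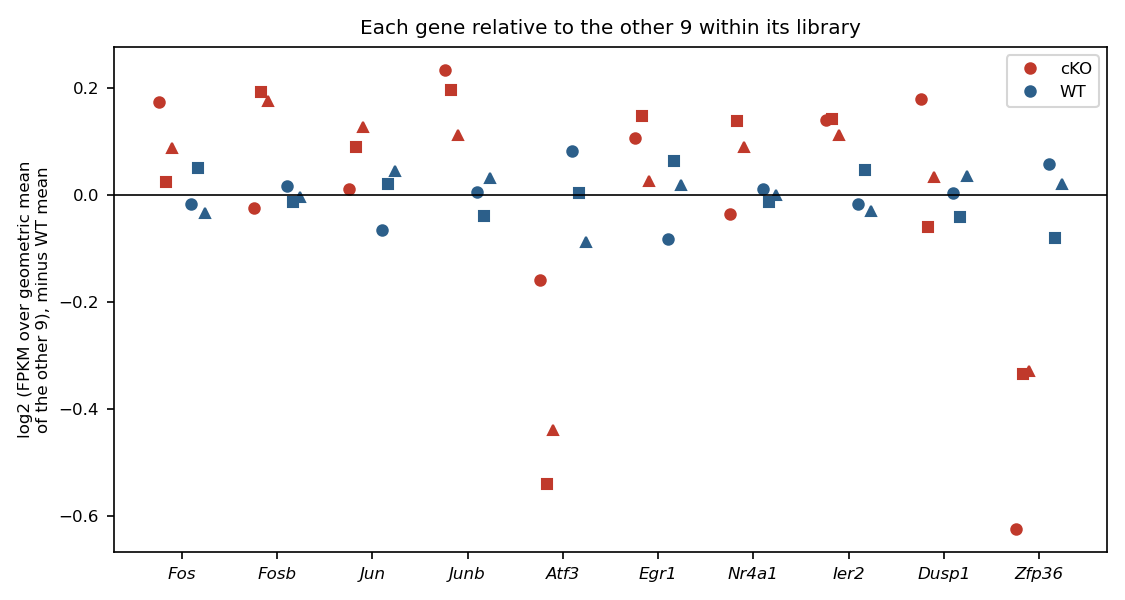
Log2 of each gene's FPKM over the geometric mean of the other 9 in the same library, minus its WT mean (vertical axis), for cKO (red) and WT (blue) replicates 1 (circle), 2 (square) and 3 (triangle). Zfp36 and Atf3 are below every WT library in all 3 cKO libraries, and Junb and Ier2 above.

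Within the AP-1 genes, the shares of Jund and Fosl2 differed between groups without overlap and those of the immediate early members overlapped. No background over all genes was computed for such shares and sums. In FPKM as deposited 22.6% of all genes did not overlap in either direction. Of the summed FPKM of Fos, Fosb, Fosl1, Fosl2, Jun, Junb and Jund, Fos held 40.6% ± 1.75 in cKO and 41.3% ± 0.973 in WT, and Junb held 17.2% ± 0.674 and 16.6% ± 0.462 in the same order (SD, n = 3 each). The shares of Fos, Fosb, Jun and Junb overlapped between groups. Jund, the JUN gene that most cells express without a stimulus, held 8.64% to 9.03% in cKO and 7.30% to 8.11% in WT. Fosl2, a FOS-related gene, held 2.25% to 2.88% in cKO and 3.14% to 3.36% in WT. FOS genes exceeded JUN genes by a ratio of 1.44 ± 0.0349 in cKO and 1.53 ± 0.0661 in WT, and these values overlapped. The summed FPKM of the 10 immediate early genes was 1690, 1491 and 1538 in cKO, against 1405, 1352 and 1402 in WT, without overlap. As a share of all FPKM it was 0.503%, 0.629% and 0.625% in cKO, against 0.594%, 0.604% and 0.584% in WT, with overlap.

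Libraries of a group were close to each other for these genes. As deposited, the coefficient of variation had a median over the 10 of 6.64% in cKO and 4.09% in WT, against 20.3% and 5.45% over the 1039 genes with a mean level at least that of Atf3. All 10 were below the cKO median and 8 of the 10 below the WT median. After median-of-ratios scaling the medians were 6.57% in cKO and 5.19% in WT for the 10, against 10.4% and 5.15%. Fos and Ier2 were the steadiest in WT, at 1.36% and 1.34% as deposited. Their largest counting errors over all 6 libraries were estimated at 1.23% and 2.72%, both in cKO replicate 1 and not in WT. Which genes varied most in cKO depended on the scaling: as deposited Atf3 at 19.0% and Dusp1 at 13.9% did, and after scaling Zfp36 at 15.2% and Fosb at 12.3%, with Atf3 then at 8.12% and Dusp1 at 4.76%.

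**Figure D4:**
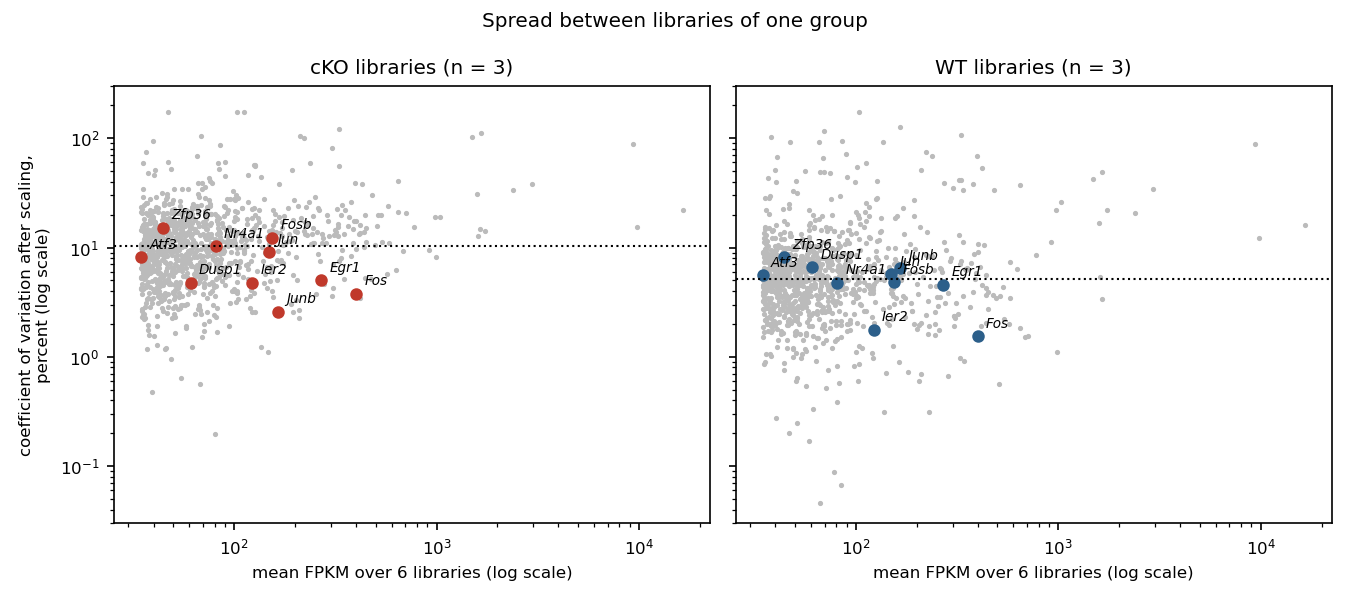
Coefficient of variation between the 3 libraries of a group after median-of-ratios scaling (vertical axis, percent, log scale) against mean FPKM over 6 libraries (log scale), for cKO (left) and WT (right); grey points are the 1039 genes at or above the mean level of Atf3, coloured points the 10 immediate early genes, and dotted lines the medians of 10.4% and 5.15%. In cKO 8 of the 10 are below the dotted line, and in WT 5 of the 10.

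The genes whose profile over the 6 libraries was most like the mean profile of the 10 were Wdr33, Tmem87b, Repin1, Rxra and Tnk2, out of 7733 genes compared. Likeness was the root mean square difference of centred log2(FPKM + 1), which was 0.0138 for Wdr33 and 0.0232 for Tnk2. Wdr33, a subunit of the mRNA 3′ end processing complex, was at 25.3, 22.5 and 23.4 FPKM in cKO, against 22.2, 21.3 and 22.5 FPKM in WT. Among the 10, Jun lay nearest to the mean of the other 9 at 0.0601, while Atf3 and Zfp36 lay farthest at 0.221 and 0.236. For Jun 191 genes outside the 10 were nearer to the mean profile than Jun itself, and for Zfp36 6197 were.

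Other primary response genes did not pass the test. Of 57 on the list 52 were tested, 31 of them positive and 21 negative, with a median log2 fold change of 0.08, the median of all genes. The smallest p belonged to Nfil3, Jund and Maff. Nfil3, a bZIP repressor, was at 20.03, 16.7 and 17.5 FPKM in cKO, against 12.5, 12.7 and 10.7 FPKM in WT (limma adjusted p = 0.121). It was called after median-of-ratios scaling (log2 fold change 0.48, limma adjusted p = 0.0381), the only 1 of the 52. On that scale 1.29% of all genes were called. Jund was at 100.3, 89.5 and 89.7 FPKM in cKO, against 67.7, 63.9 and 74.2 FPKM in WT, a log2 fold change (± SE) of 0.44 ± 0.12 at adjusted p = 0.205 (limma). Maff, a small MAF protein, had a log2 fold change (± SE) of 0.40 ± 0.12 at adjusted p = 0.228 (limma). The groups did not overlap for any of the 3, which were named for the smallest p. Of the 52 genes 10 were higher in cKO without overlap and 2 lower, against 15.5% and 7.03% of all genes.

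None of the paralogs and partners of the 10 genes was called as deposited. On the list of AP-1 and related bZIP partners 11 of 16 genes were tested, 7 of them positive, with a median of 0.15 and 0 called. Mafg, another small MAF protein, had a log2 fold change (± SE) of 0.39 ± 0.11 at adjusted p = 0.197 (limma). Fosl2 averaged 27.3 ± 2.33 FPKM in cKO against 29.5 ± 1.06 FPKM in WT (SD, n = 3 each). Fosl1 averaged 0.520 ± 0.348 FPKM in cKO against 0.502 ± 0.380 FPKM in WT (SD, n = 3 each) and was below the level needed for testing. On the list of EGR, NR4A, IER, DUSP and ZFP36 relatives 20 of 22 genes were tested, 10 positive and 10 negative, with a median of 0.04 and 0 called.

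Dusp9, a phosphatase of ERK and p38, had the largest log2 fold change on that list. It was at 13.4, 10.2 and 8.51 FPKM in cKO, against 4.11, 3.11 and 4.47 FPKM in WT, a log2 fold change (± SE) of 1.25 ± 0.18 at adjusted p = 0.0537 (limma). It was called after median-of-ratios scaling (limma adjusted p = 0.0154). Dusp16 and Dusp4, phosphatases of JNK and of ERK, had log2 fold changes of 0.26 and 0.32 (limma adjusted p = 0.304 and 0.366). Egr2 averaged 24.98 ± 0.537 FPKM in cKO against 25.6 ± 1.81 FPKM in WT, and Egr3 at 3.70 ± 0.820 and 4.18 ± 0.412 FPKM in the same order (SD, n = 3 each). Nr4a2 and Nr4a3, the other NR4A receptors, had log2 fold changes of -0.24 and -0.09 (limma adjusted p = 0.428 and 0.795). Zfp36l1 was at 102.8, 90.7 and 91.8 FPKM in cKO, against 100.9, 107.0 and 106.0 FPKM in WT, and Zfp36l2 at 56.5, 52.4 and 50.5 FPKM in cKO, against 47.9, 48.5 and 51.4 FPKM in WT. Both paralogs of Zfp36 were more abundant than Zfp36 itself, except that Zfp36l2 overlapped it in WT.

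Upstream transcription factors and kinases were all tested, 38 of 38, with 25 positive, a median of 0.02 and 0 called, and after scaling 13 were positive with a median of -0.05. Srf, the serum response factor, averaged 13.9 ± 0.782 FPKM in cKO against 13.9 ± 0.555 FPKM in WT (SD, n = 3 each). Map2k1, the ERK kinase MEK1, was at 16.1, 11.7 and 11.9 FPKM in cKO, against 9.36, 8.08 and 9.56 FPKM in WT, a log2 fold change (± SE) of 0.50 ± 0.14 at adjusted p = 0.201 (limma). Map2k3, a p38 kinase, and Mapk8, which encodes JNK1, had log2 fold changes of 0.25 and 0.20 (limma adjusted p = 0.301 and 0.370). Groups did not overlap for any of these 3 kinases, which were named for the smallest p of the list. Of the 38 genes 5 were higher in cKO without overlap and 2 lower, against 15.5% and 7.03% of all genes.

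Heat shock genes of the dissociation response were tested as 16 of 16, with 9 positive, a median of 0.07 and 0 called. Hspd1, a mitochondrial chaperonin, had a log2 fold change (± SE) of 0.35 ± 0.13 at adjusted p = 0.301 (limma), and Bag3, a co-chaperone, one of 0.23 (limma adjusted p = 0.352). Both were named for a small p. The other 7 of the 16 were negative, among them Hspb1 at -0.32, Hspa1b at -0.17 and Hspa1a at -0.13.

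Atf3 also belongs to the targets of the integrated stress response, whose other listed genes mostly had positive fold changes. Of 18 genes on that list 17 were tested, and 16 were positive with a median of 0.55, against 65.2% of all genes positive. After median-of-ratios scaling 13 were positive and 4 negative, with a median of 0.46. As deposited Ddit3 (0.02), Ddit4 (0.04), Ppp1r15a (0.07) and Atf5 (-0.05) of this list lay near 0. Called higher as deposited were 3, Asns, Nupr1 and Mthfd2. Asns, the asparagine synthetase, was at 24.9, 16.6 and 14.5 FPKM in cKO, against 5.93, 5.80 and 5.93 FPKM in WT, a log2 fold change (± SE) of 1.48 ± 0.18 at adjusted p = 0.0437 (limma). Nupr1 and Mthfd2 had log2 fold changes of 1.91 and 1.55 (limma adjusted p = 0.0437 for both). After median-of-ratios scaling 7 were called higher. Over all genes 0.0482% were called higher as deposited and 0.764% after scaling. That this list is higher in these libraries was known when the list was set, so its count is a description. The difference between Atf3 and these genes was not tested.

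The transcripts that ZFP36 is known to destabilise were set beside Zfp36. Of 19 genes on the list 13 were tested, with 3 positive and 10 negative, a median of -0.17 and 0 called, against 0.121% of all genes. Il1b, the cytokine interleukin 1 beta, was at 0.587, 0.703 and 0.278 FPKM in cKO, against 1.58, 3.15 and 2.43 FPKM in WT. Its log2 fold change was -1.14 (SE 0.22, limma adjusted p = 0.101), and after scaling it was called lower (limma adjusted p = 0.0479), as were 0.530% of all genes. Tnf stood at 1.87, 0.645 and 1.37 FPKM in cKO, against 1.59, 2.74 and 2.89 FPKM in WT, with overlap (limma adjusted p = 0.346). The chemokine gene Cxcl1 had a log2 fold change (± SE) of 0.23 ± 0.10 at adjusted p = 0.346 (limma). All 3 are low or moderate in level, and Il1b and Tnf are made largely by macrophages. The part of macrophage number or of Zfp36 in these values was not tested.

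**Figure D5:**
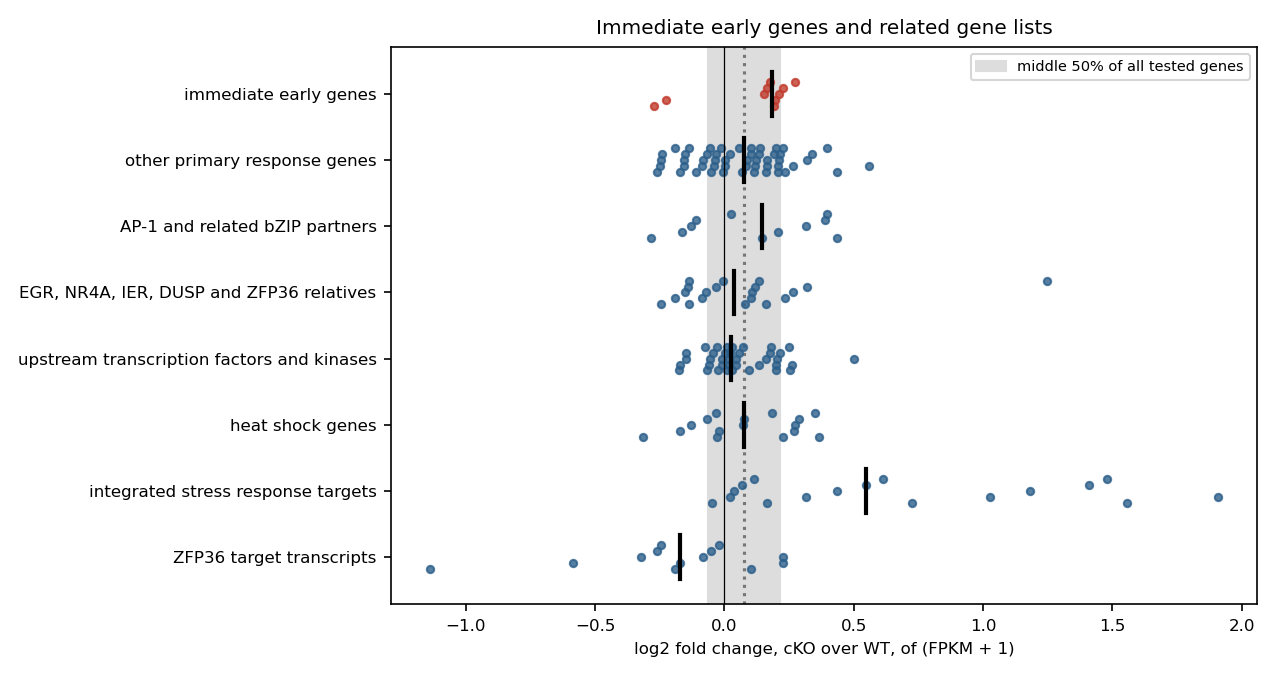
Log2 fold change of cKO over WT on the log2(FPKM + 1) scale (horizontal axis) of every tested gene of each list (points), with list medians (black bars), 0 (black line), the median of all genes (dotted line, 0.08) and the middle 50% of all genes (grey band). The median of the 10 immediate early genes is 0.19, that of the integrated stress response targets 0.55 and that of the ZFP36 targets -0.17.

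Of the 8 lists of markers for cell types in the ovary, those of germ cells and surface epithelium held 1 called gene each as deposited and the other 6 held 0. The summed levels overlapped between groups for endothelial, macrophage and granulosa markers and not for the other 5 lists. No background was computed for such sums, while 22.6% of all single genes did not overlap as deposited. Endothelial markers were positive in 0 of 12, with a summed level of 90.3 to 115 FPKM in cKO against 113 to 144 FPKM in WT. For stroma and mesenchyme 1 of 12 was positive, with a sum of 891 to 988 FPKM in cKO against 1135 to 1182 FPKM in WT. Pericyte and smooth muscle markers were positive in 0 of 8 tested, with a sum of 48.3 to 53.5 FPKM in cKO against 67.4 to 71.6 FPKM in WT. Macrophage and leukocyte markers were positive in 3 of 9 tested and low in both groups, with a sum of 22.6 to 28.0 FPKM in cKO against 24.2 to 33.7 FPKM in WT. Of the surface epithelium markers 2 of 11 were positive, and Upk1b was called lower. Their sum was 190.0 to 285.9 FPKM in cKO against 286.1 to 307 FPKM in WT, ranges that almost met. Erythroid markers were positive in 1 of 5 tested, with a sum of 463 to 534 FPKM in cKO against 772 to 837 FPKM in WT. Taken singly, 0 of the 5 separated the groups. Between WT libraries Hba-a1 and Hba-a2 had coefficients of variation of 67.3% and 93.8%. Germ cell and oocyte markers were positive in 9 of 14 tested, with a sum of 197 to 348 FPKM in cKO against 168 to 189 FPKM in WT, and Zp3 was called lower. After median-of-ratios scaling 3 germ cell markers were called higher and 2 lower, and the sum was 202.0 to 296 FPKM in cKO against 176 to 193 FPKM in WT. Scaling also separated the endothelial sums, at 93.3 to 98.0 FPKM in cKO against 119 to 146 FPKM in WT, while the macrophage and granulosa sums still overlapped. Among the other lists 3 surface epithelium markers and 1 pericyte marker, Acta2, were called lower after scaling. So were 2 genes of the granulosa list, Rspo1 and Nr2f2, and no others of that list were called. Over all genes 0.764% were called higher and 0.530% lower on that scale. For pregranulosa and granulosa cells 8 of 14 were positive, with a sum of 557 to 684 FPKM in cKO against 576 to 587 FPKM in WT. Of all these markers in the table only Oosp1, an oocyte gene, was listed at 0 in any library. The part of these shifts in the values of the immediate early genes was not tested.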

How the data were processed

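Transcript levels of whole ovaries were measured in 6 libraries, 3 cKO and 3 WT, as 1 table of FPKM values that the authors deposited. The submitters' processing notes name featureCounts 2.0.6, HISAT2 2.2.1, STAR 2.7.11a and mm10 with no role for each. Which of them made the FPKM values is not stated there. Each column matched 1 sample title, and FPKM keeps no raw counts. Depth was estimated from the smallest FPKM steps of 2437 genes with 1 annotated transcript of at least 1500 bases, assuming fragments of 200 bases. Of the low values 73.0% to 77.0% lay within 0.15 of a whole fragment, so the estimate is approximate, and it covers counting error only.

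Genes averaging 1 FPKM or more over the 6 libraries were tested by limma 3.58.1 in R 4.3.3 on log2(FPKM + 1) with an intensity trend, two-sided, with Benjamini-Hochberg adjustment over all 12442 genes. Fold changes are on that scale, which understates changes of low genes. Permutation tests used scipy 1.17.1. The fit, the depth estimate, the length correction and the motif search were tested on simulated data. Transcript lengths and exons came from GENCODE M21 (GRCm38), upstream sequences from RefSeq.

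The 10 members and the 15 gene lists were chosen with earlier results of these data known, and the lists get no test of their own. Named genes were all 10 members, fixed paralogs, and of each list the called genes or else the 3 with the smallest p. 1 gene that this rule names is not reported here. The 5 genes of most similar profile had a mean of at least 5 FPKM. Alternatives were a pseudocount of 0.1, no filter, a mean of at least 5 FPKM, median-of-ratios scaling, quantile normalization, TPM rescaling, no trend, library weights, a replicate block and each library left out. Added after seeing the data were a correction for transcript length, and scaling without cKO replicate 1.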

Additional observations from a re-analysis of the deposited data

How the results depend on the processing

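None of the 10 immediate early genes was called under any of the 17 alternatives, with 10 fold changes each. Of these 170 values 163 kept their sign, and 7 that were not called to begin with changed it: after quantile normalization Fos had -0.0756 and Jun -0.0124, and with TPM rescaling Fos had -0.0123, Jun -0.0299, Egr1 -0.014, Dusp1 -0.0518 and Nr4a1 -0.0398. The smallest adjusted p of any of the 10 was 0.0652, for Atf3 with TPM rescaling (limma). The median log2 fold change of the 10, 0.19 as deposited, was 0.10 after median-of-ratios scaling, 0.0085 after quantile normalization, -0.022 with TPM rescaling and 0.10 with the correction for transcript length, chosen after seeing the data. Leaving out 1 library gave 0.15 to 0.21.

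The number of genes called, 15 as deposited, was 34 with a pseudocount of 0.1 FPKM, 5 with no filter, 23 with a mean of at least 5 FPKM, 161 after median-of-ratios scaling, 236 after quantile normalization, 149 with TPM rescaling, 5 without the intensity trend, 172 with library weights, 201 with the length correction and 95 with scaling but no cKO replicate 1. It was 89, 4 and 74 without cKO replicates 1, 2 and 3, and 2, 2 and 6 without WT replicates 1, 2 and 3. The cause was not tested. With the replicate number as a block 2 genes were called and 0 of the 10. Same-numbered libraries deviated together with r of -0.01, 0.04 and 0.07 across genes, and cKO replicate 1 went better with WT replicate 2 (0.03) than with its own number, so the numbers were not taken to pair libraries. With 3 libraries a group the intervals of the 10 genes as deposited reach differences of up to 0.60 (log2), so small differences were not detectable.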
